A study of Homo sapiens with 20 samples.

Results

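Epithelial and mesenchymal identity genes are the genes by which a cell's place between the sheet-forming epithelial state and the migratory mesenchymal state is commonly read. The 10 genes described here were taken as listed, and the list was chosen with earlier results of these data known. The epithelial genes are CDH1, EPCAM, KRT8, KRT18 and KRT19, and the mesenchymal genes are VIM, CDH2, ZEB1, SNAI2 and FN1. These are 10 of 19962 protein-coding genes of GENCODE release 44 on GRCh38, and all 10 were found by symbol. For each gene the positions at which RNA polymerase II (POL2) and the transcription factor c-Myc (MYC) were called by chromatin immunoprecipitation and sequencing (ChIP-seq) were read near its transcription start sites (TSS) and over its body.

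All libraries came from PC-3, an established human prostate cancer cell line that the labels call epithelial. Unmodified wild-type (WT) cells were set beside SLK-knockout (SLK-KO) cells, in which the gene of the kinase SLK was disrupted. Every SLK-KO library carries the name PSD10, which the sources do not explain. If PSD10 is 1 line, the absence of SLK and any other trait of that line cannot be told apart. There were 3 libraries for each antibody and genotype, given as biological replicates. The 6 IgG and 2 Input samples were not used here. Each library is a list of summits, the single bases at which called peaks were highest, with a score. A summit within 1 kb of any annotated TSS of a gene was counted as a promoter summit. A rank of 1 is the best score of a list.

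The POL2 lists held between 5047 and 17126 summits in WT and between 15436 and 19017 in SLK-KO cells, and the MYC lists between 201 and 365 and between 988 and 1420. WT POL2 replicate 2 stood apart as the shortest POL2 list. Read depth is unknown, so a longer list and a deeper or cleaner library cannot be told apart. Ranks were therefore compared between genotypes in the 5047 best summits of each POL2 list, called equal-length lists below, with an absent gene set to 5048. Exact two-sided permutation of 3 against 3 libraries has 20 relabellings and cannot give a p below 0.1. The smallest Benjamini-Hochberg adjusted p was 0.434 for ranks over 6783 genes, so no gene passed a threshold of 0.05, and non-overlap of the 2 genotypes' ranges is given as a description. POL2 was called at the promoter of SLK itself in 2 WT and 3 SLK-KO libraries, which does not test the knockout, since a summit at the promoter can remain when the protein is lost.

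As background, epithelial cells are held together by E-cadherin, the product of CDH1, and by EPCAM, and carry intermediate filaments of paired keratins, in simple epithelia mainly keratins 8, 18 and 19. In the epithelial-mesenchymal transition the zinc-finger repressors ZEB1 and SNAI2 bind E2-box motifs (CAGGTG) in epithelial promoters such as that of CDH1, while N-cadherin (CDH2), vimentin (VIM) and fibronectin (FN1) are produced. Carcinoma lines often express genes of both kinds. POL2 gathers just after the start site of active genes, where it may pause before it moves on, so a promoter summit marks engaged polymerase and not an amount of transcript. MYC binds active promoters, with a preference for the E-box CACGTG.

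Start regions are shown for 4 mesenchymal genes, VIM, CDH2, ZEB1 and FN1. The 150 bases of the GRCh38 genome before a GENCODE TSS near the best POL2 summits are printed 5′ to 3′ on the gene's strand. They are shown because the POL2 summits that the results turn on lay at or near these starts. The TSS most often nearest was taken, or for a tie the most upstream, and then the first of any starts just beside it. Capitals mark matches to TATAAA (the TATA box core) or CAGGTG (the E2 box) on either strand, where the reverse forms read TTTATA and CACCTG. No CACGTG was found in these stretches. The regions are VIM at chr10:17229128-17229277 (plus strand), CDH2 at chr18:28177131-28177280 (minus strand), ZEB1 at chr10:31318345-31318494 (plus strand) and FN1 at chr2:215436074-215436223 (minus strand).
VIM: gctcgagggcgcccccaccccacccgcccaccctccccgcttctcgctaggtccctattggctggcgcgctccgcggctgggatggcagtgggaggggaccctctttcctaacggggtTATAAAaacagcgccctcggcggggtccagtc
CDH2: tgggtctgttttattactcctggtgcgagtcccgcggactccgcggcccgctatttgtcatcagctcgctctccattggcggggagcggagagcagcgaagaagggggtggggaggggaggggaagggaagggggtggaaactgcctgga
ZEB1: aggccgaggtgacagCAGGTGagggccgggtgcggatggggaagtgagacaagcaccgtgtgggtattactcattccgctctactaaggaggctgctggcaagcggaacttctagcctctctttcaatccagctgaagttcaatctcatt
FN1: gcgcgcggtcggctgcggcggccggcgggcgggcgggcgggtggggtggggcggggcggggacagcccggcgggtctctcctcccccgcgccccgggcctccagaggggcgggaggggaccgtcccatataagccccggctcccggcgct
VIM, which had the best rank of the 10 genes, held TATAAA at the usual TATA-box distance, beginning 32 bases before the start used, 17229278. The summit distances of VIM given below are counted from another start, 17229291. ZEB1 held CAGGTG 135 bases before the start used, 31318495. That start was the nearest one in SLK-KO replicates 1 and 2 alone. The CDH2 and FN1 stretches held no exact match, and variants of these motifs were not searched for. The start listed for VIM in RefSeq lies upstream at 17228241, and the RefSeq promoter there, 250 bases before to 50 after it, held no TATAAA. For all 10764 coding genes with a POL2 promoter summit, the start nearest to the median best summit was used, which for ZEB1 is another start. Of their 150-base stretches, 3.04% held TATAAA, 7.90% CAGGTG and 5.94% CACGTG. A match is a description of letters, not evidence of a bound site.

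POL2 was found at the promoters of both kinds of gene in both genotypes. A POL2 promoter summit stood in at least 2 of 3 libraries for 3 of 5 epithelial genes in WT and 4 of 5 in SLK-KO cells, against 35.5% and 47.5% of all coding genes. The mesenchymal counts were 5 of 5 in both genotypes. KRT8, KRT18, KRT19, VIM, CDH2, SNAI2 and FN1 had a summit in all 6 libraries, as did 18.1% of coding genes. ZEB1 had one in 5 libraries, EPCAM in 4 and CDH1 in 1. None of the 10 had a summit in 3 libraries of one genotype and 0 of the other, a pattern that 2.87% of 10764 genes showed towards SLK-KO and 0.0186% towards WT.

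The genes were ordered by the median, over the 6 POL2 libraries, of the rank as a percentage of the list, with an absent gene at 100, and 46.1% of coding genes were absent from all 6. VIM came first at 1.15% and KRT8 second at 1.76%, followed by KRT19 at 2.85%, KRT18 at 6.36%, SNAI2 at 8.57%, CDH2 at 17.5%, FN1 at 21.5%, ZEB1 at 30.0% and EPCAM at 60.0%, with CDH1 last. Each neighbouring pair in this order had overlapping ranges over the libraries. With both genotypes pooled, the filament genes of both states thus stood at the front. The other mesenchymal genes followed, and the epithelial adhesion genes came last. In SLK-KO replicates 1 to 3, however, SNAI2 ranked 448, 418 and 1049, ahead of KRT18 at 1417, 778 and 1247. SNAI2 was also ahead of KRT19 in SLK-KO replicates 1 and 2. Equal ranks do not mean equal occupancy between libraries, since the scores depend on depth.

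**Figure D1:**
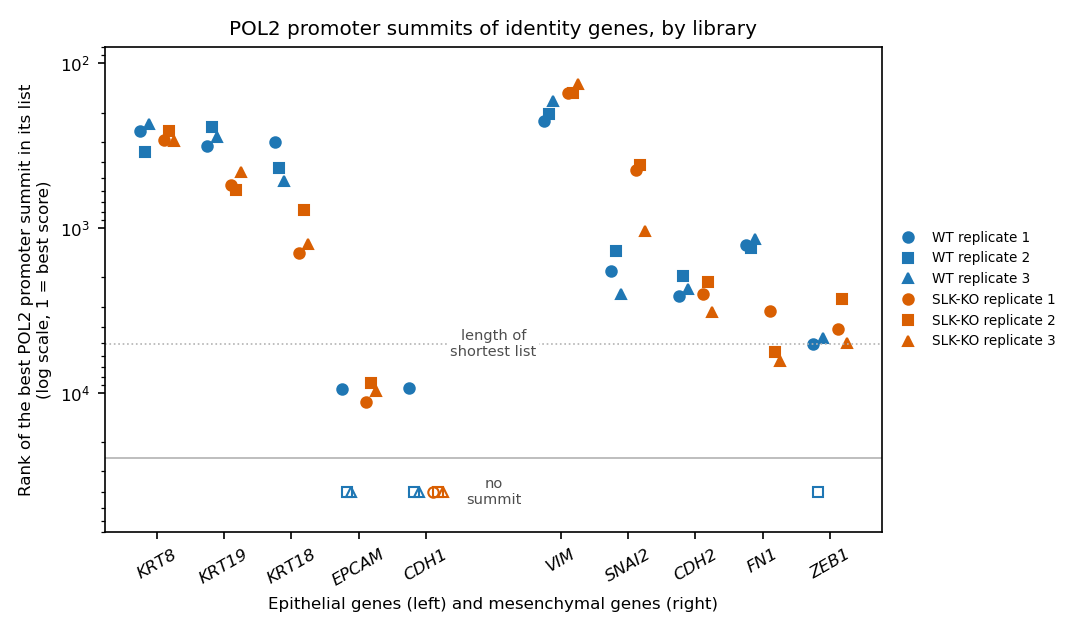
Rank of the best POL2 promoter summit of each gene in each library (y axis, log scale, 1 at the top), with WT in blue and SLK-KO in orange, and replicates 1 to 3 as circles, squares and triangles. Open symbols mark libraries with no summit, and the dotted line is the length of the shortest list, 5047. KRT18, KRT19 and FN1 ranked later and VIM and SNAI2 earlier in all 3 SLK-KO lists than in all 3 WT lists.

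Among the keratins, KRT8, the type II partner of keratin 18, ranked 258, 349 and 234 in WT replicates 1 to 3 and 294, 260 and 298 in SLK-KO replicates 1 to 3. The genotypes overlapped and the mean log2 rank differed by 0.04 (SLK-KO minus WT, exact permutation p = 0.9). Its summits lay within 23 bp of each other, 21 to 44 bp after the nearest TSS.

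KRT18, the type I partner, ranked 303, 436 and 522 in WT and 1417, 778 and 1247 in SLK-KO cells. Every SLK-KO library ranked it later than every WT library, with a mean log2 difference of 1.44, a 2.71-fold later rank (exact permutation p = 0.1, adjusted p = 0.434). KRT19, the smallest keratin and one without a fixed partner, ranked 318, 246 and 281 in WT and 547, 592 and 458 in SLK-KO cells. It too was later in all 3 SLK-KO lists, by 0.92 on the log2 scale or 1.89-fold (exact permutation p = 0.1, adjusted p = 0.434). The share of all genes whose ranges lay apart in this direction was 9.46%. In the keratin pair, KRT8 thus held overlapping ranks in the 2 genotypes and KRT18 did not, although the genes are close neighbours on chromosome 12 and read in opposite directions. Without WT replicate 2 the KRT8 ranges lay apart too, by 0.21. With the 5′ end of the gene record as the only start, KRT8 was read at the KRT18 summit and differed by 1.44, as KRT18 did. Whether KRT8 and KRT18 differ was not tested.

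KRT8 has long annotated transcripts that begin beside KRT18, so the KRT18 summit, 27 to 60 bp after the nearest KRT18 TSS, also lay 589 to 622 bp from a KRT8 TSS. The KRT8 ranks above come from the other cluster of starts, where the score was better in every library. KRT19 summits lay 17 to 68 bp after its nearest TSS.

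The epithelial adhesion genes were called in fewer lists than the other genes, and at late ranks. Since depth is unknown, absence of a summit does not show absence of POL2. CDH1, which encodes E-cadherin, had a promoter summit in WT replicate 1 alone, 40 bp after the canonical TSS at rank 9371 of 17126, and none in the other 5 lists. SLK-KO replicate 2 had an intronic summit 5702 bp after that TSS, at rank 11302. The summits seen beyond its far end stood at TANGO6, the next gene, which had a promoter summit in 1 WT and 3 SLK-KO libraries.

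EPCAM, which encodes an epithelial adhesion and signalling protein, was called at different starts. In WT replicate 1 its summit lay 42 bp after the canonical TSS, at rank 9440, and WT replicates 2 and 3 had none. In SLK-KO replicates 1 to 3 the summit lay 24128, 24073 and 24131 bp before the canonical TSS, at ranks 11375, 8765 and 9795. These 3 summits stood 17 to 75 bp after the start of the longest annotated EPCAM transcripts, and also 106 to 164 bp from the start of EPCAM-DT, a long non-coding RNA gene read in the opposite direction. Summit lists do not tell which of the 2 genes the polymerase was on. With the canonical TSS alone, EPCAM had a promoter summit in no SLK-KO library, and all its summits lay past the 5047 best of their lists.

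**Figure D2:**
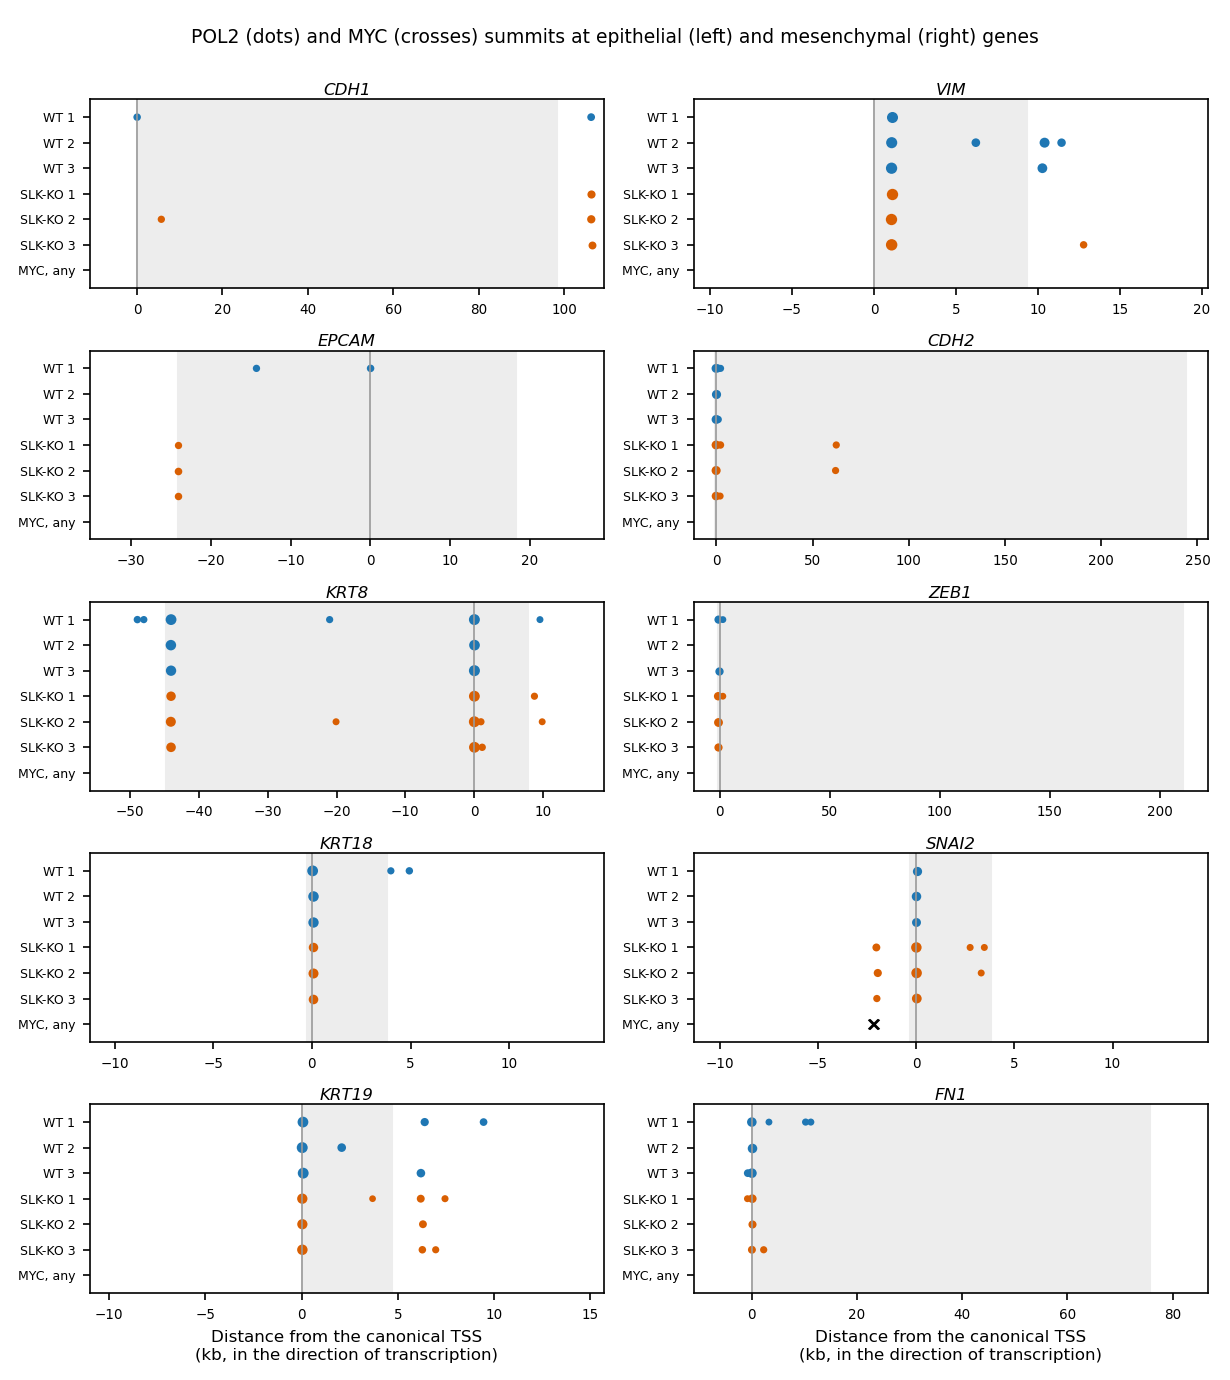
Summits along each gene and 10 kb on either side, as distance from the canonical TSS in kb (x axis, in the direction of transcription), with 1 row per POL2 library and 1 row for all MYC libraries together. Grey marks the annotated gene, and larger dots are better ranks. Summits gather at a start in 8 genes, the EPCAM summits of SLK-KO cells lie 24.1 kb before the canonical TSS, and the MYC crosses appear at SNAI2 alone.

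Of the mesenchymal genes, VIM, which encodes the main intermediate filament protein of mesenchymal cells, had the best rank of the 10 genes in each of the 6 libraries. It ranked 225, 205 and 169 in WT and 152, 153 and 134 in SLK-KO cells. All 3 SLK-KO lists placed it earlier, by a mean log2 difference of -0.44 or 1.36-fold (exact permutation p = 0.1, adjusted p = 0.434), against 13.6% of all genes apart in this direction. The summits fell within 16 bp of each other, 12 to 28 bp after a TSS that lies inside the canonical transcript, so that the same positions were 1062 to 1078 bp from the canonical TSS. They were also 101 to 117 bp from the start of the antisense gene VIM-AS1, and the lists carry no strand.

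CDH2, which encodes N-cadherin, ranked 2608, 1972 and 2339 in WT and 2529, 2130 and 3229 in SLK-KO cells. The ranges overlapped, with a mean log2 difference of 0.18 (exact permutation p = 0.5). Its best summits lay 153 to 241 bp before the TSS in all 6 libraries, whereas those of KRT8, KRT18, KRT19, VIM and FN1 lay after the nearest one. A promoter summit was thus called for N-cadherin in every library, and for E-cadherin in 1 of 6.

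FN1, which encodes the matrix glycoprotein fibronectin, ranked 1277, 1318 and 1174 in WT. In SLK-KO replicates 1 to 3 it ranked 3216, 5637 and 6457, the last 2 outside the equal-length lists. Every SLK-KO library placed it later than every WT library, by a mean log2 difference of 1.79 with those 2 set to 5048, or 3.46-fold (exact permutation p = 0.1, adjusted p = 0.434). This is among the largest differences in that direction, since 0.590% of the 6783 genes had a larger one. Its summits lay 31 to 112 bp after the nearest TSS and 217 to 563 bp from the start of FN1-DT, a non-coding gene read the other way.

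The repressor SNAI2 (Slug) showed the opposite order. It ranked 1832, 1385 and 2512 in WT and 448, 418 and 1049 in SLK-KO cells. All SLK-KO lists placed it earlier, by a mean log2 difference of -1.67 or 3.19-fold (exact permutation p = 0.1, adjusted p = 0.434), and 1.22% of genes had a lower value. Away from its start, the SLK-KO lists held summits that no WT list held: 1 each in replicates 1, 2 and 3, 1709, 1637 and 1684 bp before the nearest TSS at ranks 6606, 5386 and 11523, and 3 in all in the 3′ part of the gene in replicates 1 and 2. The list of WT replicate 2 ends before these ranks, that of WT replicate 3 reaches the better of them, and that of WT replicate 1 reaches all of them. The part of list length in this was not tested. A non-coding gene, ENSG00000288761, starts 66 to 111 bp from the SNAI2 summits.

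ZEB1, the other repressor, ranked later than SNAI2 in every list that held it. It ranked 5035 and 4639 in WT replicates 1 and 3, with no summit in replicate 2, and 4119, 2683 and 4996 in SLK-KO replicates 1 to 3. The ranges overlapped, with a mean log2 difference of -0.36 (exact permutation p = 0.2). Its best summits lay 315 to 712 bp before the canonical TSS among several starts shared with ZEB1-AS1, the only gene of the 10 whose best summits were spread over 397 bp at 1 start region.

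Set side by side, 2 of the 3 epithelial genes in the equal-length lists ranked later and 0 earlier in all SLK-KO lists. Of the 5 mesenchymal genes, 2 ranked earlier and 1 later. Over all 6783 genes, 9.46% ranked later and 13.6% earlier in this sense. The median log2 difference was 0.92 for the epithelial and -0.36 for the mesenchymal genes, against -0.01 for all genes. On another scale, the rank as a percentage of each full list, all genes shifted by a median of -0.81, since the SLK-KO lists are longer. There KRT18 stood at 0.61, KRT19 at 0.09 and FN1 at 1.14, with overlapping ranges, so these 3 non-overlaps rest on equal-length lists, while VIM at -1.27 and SNAI2 at -2.50 stayed apart. Relative to that median the differences were 1.42 for KRT18, 0.90 for KRT19, 1.95 for FN1, -0.46 for VIM and -1.69 for SNAI2. On this percentage scale, 1847 of the 6783 genes ranked earlier and 31 later in all SLK-KO lists.

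MYC was not called at these genes. None of the 10 had a MYC promoter summit in any of the 6 MYC libraries. The background is low: 1.15% of coding genes had one in at least 2 WT and 4.77% in at least 2 SLK-KO libraries, and 90.3% had none at all. Among the 6712 coding genes with a POL2 promoter summit in at least 5 libraries, 23.6% had MYC in at least 1 library, and 0 of the 8 identity genes in that group did. No MYC summit lay in the span of any of the 10 genes either, and 2241 of 19962 coding genes had one in at least 1 library. Of those 2241, 8.97% were higher and 4.91% lower in all SLK-KO lists. In lists of 201 to 1420 summits, absence of a summit does not show absence of MYC.

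The nearest exception was SNAI2, with a MYC summit 1869 and 1833 bp before its nearest TSS in SLK-KO replicates 1 and 2, at ranks 710 and 726. No WT list held one. The stretch within 100 bp of each held CAGGTG and no CACGTG, and the POL2 summits of SLK-KO cells described above lay in the same upstream region. For the other 9 genes the nearest MYC summit of any library was between 57.2 kb (KRT18) and 1950 kb (CDH2) from the canonical TSS. The one closest to KRT18 belonged to EIF4B, the next coding gene, which encodes a translation initiation factor and was called for MYC in every SLK-KO but no WT library. That pattern was seen for 9.05% of 1934 genes.

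Over the whole gene with 1 kb on each side, POL2 summits were few and mostly at starts. The epithelial genes held 33 separate POL2 summits over the 6 libraries, of which 84.8% were promoter summits. The mesenchymal genes held 49, of which 71.4% were. The best-ranked body summits inside these limits were those of VIM, with none in SLK-KO lists. They stood at rank 1008 in WT replicate 3, 921 bp past the gene's end, and at rank 3289 in WT replicate 2. Outside the limits, WT replicate 2 held a summit 1054 bp past the end of VIM at rank 807. SLK-KO replicate 3 held one 3436 bp past it at rank 9775. CDH2 had body summits about 62 kb inside the gene in SLK-KO replicates 1 and 2, at 62251 and 61896 bp, and FN1 had summits 10250 and 11240 bp inside in WT replicate 1. Summed over the 5 genes and scaled to 10000 summits of the list, the epithelial genes had 6.40 ± 3.10 in WT and 4.18 ± 0.867 in SLK-KO cells, and the mesenchymal genes 8.13 ± 1.74 and 4.87 ± 0.80 (SD, n = 3). KRT18, CDH2 and FN1 were lower in all SLK-KO lists (exact permutation p = 0.1, adjusted p = 0.731), as 3.53% of genes were, but all 3 genes overlapped with a score of at least 5 or in equal-length lists, and KRT18 and FN1 without the flanks. None of the 10 was higher in all SLK-KO lists, as 7.32% were. They had 1 to 4 summits per library, and a gene that keeps 1 summit has a lower scaled value in a longer list. In equal-length lists the sums were 8.59 ± 1.14 and 7.93 for the epithelial and 10.6 ± 1.14 and 8.59 ± 1.14 for the mesenchymal genes, with the 3 SLK-KO epithelial values identical.

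Around the summits, the sequence differed between genes of the same group. Within 100 bp of the best POL2 summit, CAGGTG stood 2 times at CDH1 and 1 time each at KRT19 and SNAI2, against 13.7% of 10764 genes with at least 1 match. CACGTG stood at the upstream EPCAM start, against 4.54%. GC content ran from 54.2% at EPCAM to 73.1% at CDH1, with a median of 67.7% over all genes.

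Longer lists of the same kind, 48 epithelial and 45 mesenchymal genes that include the 10, put these values in context. A POL2 promoter summit was found for 33, 10 and 19 of the epithelial genes in WT replicates 1 to 3 and for 23, 18 and 23 in SLK-KO replicates 1 to 3. That is 43.1% ± 24.1 in WT and 44.4% ± 6.01 in SLK-KO cells (SD, n = 3). Of the mesenchymal genes, 24, 13 and 21 had one in the WT lists and 27, 25 and 26 in the SLK-KO lists, or 43.0% ± 12.6 and 57.8% ± 2.22. All coding genes stood at 34.0% ± 14.2 and 47.2% ± 1.92. The mesenchymal share lay above that of all coding genes in each of the 6 libraries. The epithelial share lay above it in 3 of 3 WT libraries and below it in 2 of 3 SLK-KO libraries. The epithelial share exceeded the mesenchymal by 0.09 ± 13.3 percentage points in WT, where it was higher in replicate 1 alone, and the difference in SLK-KO cells was -13.3 ± 4.24, lower in 3 of 3 libraries. Without WT replicate 1 the WT difference was -7.57, and in equal-length lists the differences were -8.38 and -16.3.

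WT replicate 1 held more of the epithelial list than any other library. It alone had promoter summits at CDH1, CLDN1, ESRP1, GRHL1, OVOL1, ST14, SPINT1 and CDS1, 8 of the 48 genes or 16.7%, against 1.41% of all coding genes with a summit there and nowhere else. These are an adhesion gene, a claudin, a splicing regulator, transcription factors of epithelia and the matriptase protease with an inhibitor. Their ranks, 8942 to 14525, all lay beyond the length of WT replicate 2. Their absence from every other list, the longest (SLK-KO replicate 1) included, was fixed by how they were picked. Of the mesenchymal list, 1 gene, TGFB1, was found in that library alone.

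**Figure D3:**
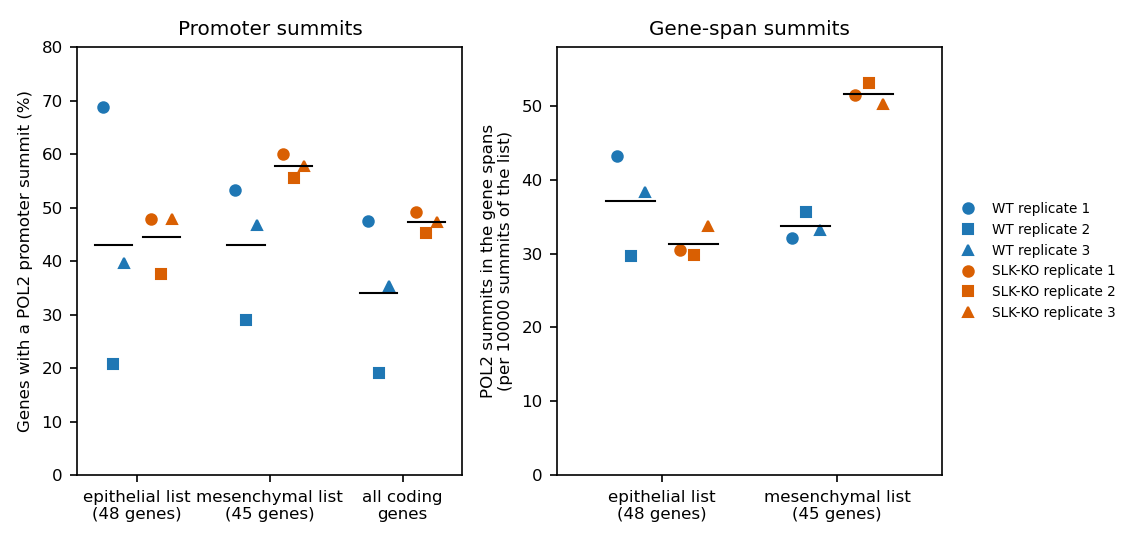
Left, percentage of genes with a POL2 promoter summit in each library for the 48 epithelial genes, the 45 mesenchymal genes and all coding genes; right, POL2 summits over the spans of the listed genes per 10000 summits of the list. Symbols are libraries and black lines means over 3. WT replicate 1 stands at 68.8% in the epithelial list, and the mesenchymal spans average 33.7 in WT and 51.7 in SLK-KO cells.

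Ranks of the longer lists are given for context. These lists contain the 10 genes, so a shared direction is partly fixed in advance and is no separate support. Of the 16 epithelial genes in an equal-length list, 5 ranked later in every SLK-KO than in every WT library and 0 earlier: KRT7, KRT18, KRT19, the tight-junction gene CLDN4 and the desmosomal gene JUP. The median difference was 0.46. CLDN4 ranked 302, 306 and 191 in WT and 700, 540 and 601 in SLK-KO cells. ELF3, an epithelial transcription factor, ranked 518, 1530 and 556 in WT and 696, 757 and 592 in SLK-KO cells, with overlapping ranges. Of the 22 mesenchymal genes, 7 were earlier (VIM, SNAI2, CDH11, MMP14, FBN1 and CALD1 among them) and 4 later (FN1, SNAI1, TWIST1 and QKI), with a median of -0.14. The shares of all 6783 genes were 9.46% later and 13.6% earlier. As a percentage of the full list, the epithelial list had 0 genes later and 2 earlier, and the mesenchymal list 0 later and 10 earlier. On that scale 31 of all 6783 genes were later and 1847 earlier, so few later genes are seen in any list. Genes of these counts beyond the 10 were named after their values were seen. Without WT replicate 2, 9 of 16 epithelial genes ranked later, as did 1199 of all coding genes, and non-overlap is easier to reach with fewer libraries. Among genes in all 6 equal-length lists, 3 of 7 epithelial genes were later, and 4 of 9 mesenchymal genes were earlier and 2 later, against 15.2% later and 15.6% earlier of all such genes.

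The repressors of epithelial genes did not share a direction in equal-length lists. SNAI2 was earlier in SLK-KO lists, whereas SNAI1 ranked 272, 518 and 239 in WT and 614, 914 and 668 in SLK-KO cells. TWIST1 ranked 478, 702 and 538 against 845, 1934 and 1126, and both were later without overlap. Of all genes, 9.46% were later and 13.6% earlier in this sense. As a percentage of the full list, SNAI1 stood at 1.59, 10.3 and 2.41 in WT and 3.23, 5.92 and 4.10 in SLK-KO cells. On that scale the ranges of SNAI1 and of TWIST1 overlapped. ZEB2 and TWIST2 had no promoter summit in any library. SNAI1 was also the gene of both longer lists most often called for MYC, in 2 WT and 3 SLK-KO libraries at ranks 156 to 1158. ACTA2, a smooth muscle actin, was the only listed gene with a POL2 promoter summit in each SLK-KO and in no WT list, at ranks 6057, 6884 and 6863. That pattern was seen for 2.87% of 10764 genes, and the list of WT replicate 2 ends before these ranks.

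**Figure D4:**
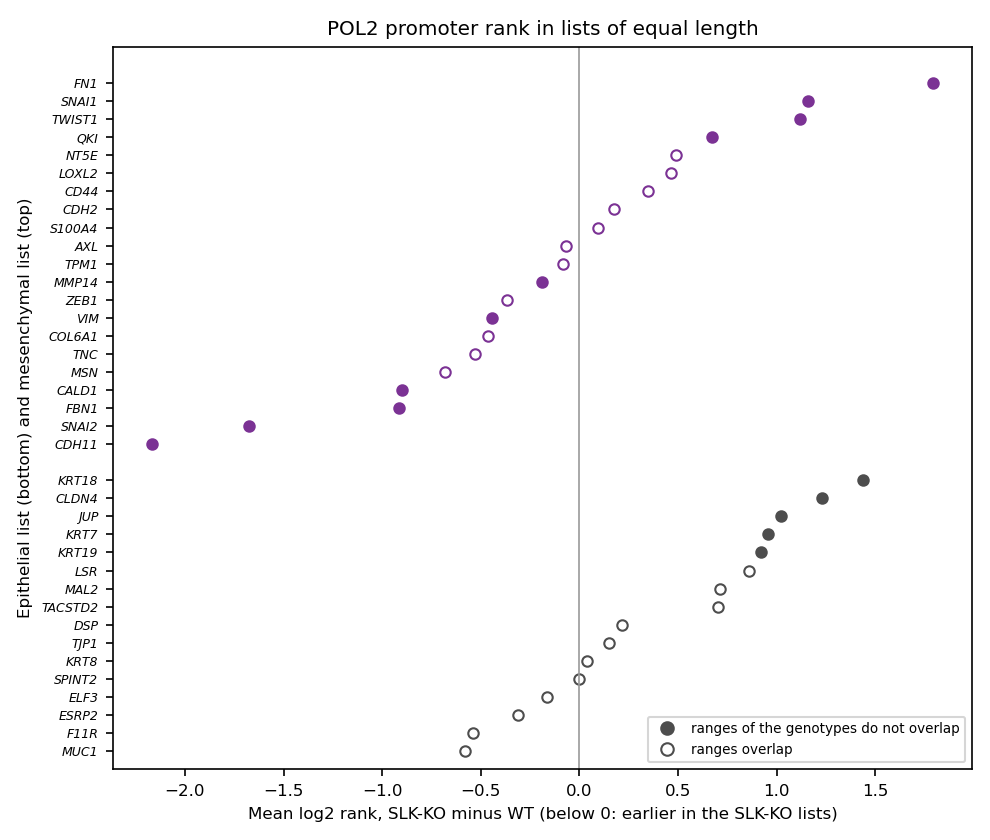
Mean log2 rank in SLK-KO minus WT equal-length lists (x axis) for the 16 epithelial genes (grey, bottom) and 21 of the 22 mesenchymal genes (purple, top) found in at least 1 of them. Filled points are genes whose 3 SLK-KO ranks all lie on one side of the 3 WT ranks. The filled epithelial points all lie right of 0, and the mesenchymal ones run from -2.17 for CDH11 to 1.79 for FN1.

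Over the gene spans of the longer lists, the mesenchymal genes had 33.7 ± 1.81 POL2 summits per 10000 in WT and 51.7 ± 1.41 in SLK-KO cells, and the epithelial genes 37.1 ± 6.83 and 31.3 ± 2.11 (SD, n = 3). Much of the mesenchymal difference was 1 gene, CDH11, which encodes the mesenchymal cadherin 11. Its span held 4, 1 and 1 summits in the WT lists and 26, 30 and 17 in the SLK-KO lists, and its promoter ranked 2429, 3816 and 2140 against 553, 568 and 699. Without CDH11 the list stood at 31.9 ± 1.97 and 37.1 ± 3.16, and in equal-length lists with it at 37.6 ± 3.43 and 41.6 ± 5.24. CDH11 was singled out after its values were seen.

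The label of an epithelial prostate cancer cell was set against other markers. Of 7 prostate luminal genes, 1 to 3 had a POL2 promoter summit in a library, and of 4 basal genes 0 or 1. None of 5 leukocyte genes had one in any library, PTPRC included, and 0 or 1 of 4 endothelial genes did. All coding genes stood at 19.1% to 47.5% in WT and 45.3% to 49.1% in SLK-KO lists, and 46.1% had none in any. The luminal shares were 14.3% to 28.6% in WT and 42.9% in SLK-KO lists. Counts this small do not test the label. Simple keratins had a promoter summit in all 6 libraries, and so did vimentin, so the 10 genes show a mixed profile. CDH1 was called in 1 library, and EPCAM ranked late where it was called.

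The gene with the most similar POL2 rank percentage over the 6 libraries was found for the 8 genes called in at least 5. By the mean absolute difference in percentage points these were HNRNPAB for VIM (0.100), IBA57 for KRT8 (0.157), MYH9 for KRT19 (0.249), SREBF1 for KRT18 (1.09), JAK1 for CDH2 (1.47), SWAP70 for ZEB1 (2.00), ANAPC5 for SNAI2 (2.14) and ZKSCAN2 for FN1 (3.09). Likeness was closest for genes at the front of the lists, where percentages are small.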

How the data were processed

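Chromatin from PC-3 cells was precipitated with antibodies to MYC or POL2 and sequenced as 50 bp paired-end reads. Per the submitters' processing notes, the nf-core/chipseq pipeline 2.1.0 was used with GRCh38.p14, and the tools named include BWA 0.7.18-r1243 and MACS3 3.0.1. Which library served as control and the caller's options are not given in the sources used here. The deposited score of each summit was read as −log10 of a q-value, because the lowest score of every list lies just above that of 0.05. It served only to rank summits within a list, and depth is unknown.

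Promoter summits lay within 1 kb of any TSS of the gene in GENCODE release 44, and gene spans had 1 kb added on each side. WT and SLK-KO libraries, 3 of each, were compared by an exact permutation test (two-sided) with Benjamini-Hochberg adjustment over all genes with a value. Equal-length lists had 5047 summits for POL2 and 201 for MYC. Alternatives were windows of 500 bp and 2 kb, a score of at least 5, other start sites, list lengths, omission of each library in turn and a block for the replicate number. The canonical TSS alone and the rank percentage were added after seeing the data. The 10 genes and the longer lists were chosen with earlier results of these data known. Named were the 10 genes, SLK, genes sharing their summits, the next coding genes, and from each longer list up to 5 genes with the best median POL2 rank, genes with POL2 in 3 libraries of one genotype and 0 of the other, genes with MYC in at least 3 libraries, and the gene most like each of the 10 in rank. A gene of the longer mesenchymal list and a promoter sequence are not reported here. The rank and count scripts were tested on simulated data. No pair of libraries held a summit with the same position and score. Software was pandas 2.3.3, scipy 1.17.1, numpy 2.4.6 and matplotlib 3.10.9 under Python 3.11.15.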

Additional observations from a re-analysis of the deposited data

How the results depend on the processing

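Depth is not known and 3 libraries per group limit every test, so directions and ranges are what can be compared. For libraries of the same number, deviations from the group means correlated at -0.02, -0.01 and -0.01 for POL2 and -0.10, -0.08 and -0.11 for MYC. For libraries of different numbers the values were -0.03 to 0.05 for POL2 and 0.01 to 0.09 for MYC. Deviations from a mean of 3 sum to 0, so these values cannot decide whether the libraries are paired. With the replicate block, exact sign flips of 3 pairs gave p = 0.25 for KRT18, KRT19, VIM, SNAI2 and FN1, the smallest that 8 flips allow. For the ranks of the 8 genes in equal-length lists, 82 alternatives kept direction and call, 4 gained non-overlap, 3 lost it (KRT18, KRT19 and FN1 as a list percentage) and 4 reversed. For the summits over gene spans, 89 kept both, 2 gained it, 8 lost it and 9 reversed. The cause of the changes below was not tested, except that equal-length and all-6 settings hold fewer summits or genes.

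Leaving out 1 library gave log2 rank differences of -0.082 to 0.21 for KRT8, 1.22 to 1.70 for KRT18, 0.82 to 1.02 for KRT19, -0.56 to -0.35 for VIM, -2.10 to -1.44 for SNAI2 and 1.68 to 2.01 for FN1. As a list percentage, KRT8 reversed to -0.79 and CDH2 to -0.65. In the longer epithelial list, leaving out 1 library gave 5 to 9 genes later (9 without WT replicate 2) and 0 to 2 earlier, and the list percentage gave 0 later and 2 earlier. In the mesenchymal list the list percentage gave 0 later, and over all coding genes it gave 31 later and 1847 earlier. Among genes in all 6 equal-length lists, 3 epithelial genes were later, 4 mesenchymal genes earlier and 2 later, and with the 5′ end of the gene record as the only start 4 mesenchymal genes were earlier. The epithelial minus mesenchymal share in SLK-KO cells was -18.1 percentage points with a 500 bp window. With a 2 kb window, 1 mesenchymal gene, SNAI2, had MYC in at least 2 SLK-KO libraries.

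Summits over spans, SLK-KO minus WT per 10000, changed sign when 1 library was left out for CDH1 (-0.195 to 0.216), KRT8 (-0.986 to 0.120), ZEB1 (-0.317 to 0.267) and SNAI2 (-0.332 to 0.367), and for CDH1 with a score of at least 5 (-0.285). The summed epithelial value in SLK-KO cells was 5.37 with 5 kb after the gene and 7.93 in equal-length lists, where the mesenchymal values were 10.6 in WT and 8.59 in SLK-KO cells.

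Over all coding genes, non-overlapping POL2 ranks numbered 408 earlier and 398 later among genes in all 6 lists, 1847 and 31 as a list percentage, and 802 to 1199 later when 1 library was left out (1199 without WT replicate 2). POL2 in every SLK-KO and no WT list was found for 200 genes in equal-length lists and for 311 to 1663 when 1 library was left out (1663 without WT replicate 1). The reverse pattern gave 5 genes with the 500 bp window, 8 with the 5′ end of the record, 4 with the canonical TSS, 91 in equal-length lists and 3 to 28 without 1 library. For MYC these were 98 genes with a score of at least 5, 7 in equal-length lists and 196 to 358 without 1 library, and in reverse 6 and 0 to 1. POL2 span counts were lower for 246 genes with a score of at least 5, lower for 135 and higher for 225 in equal-length lists, and lower for 519 to 2482 and higher for 1032 to 2217 without 1 library. MYC span counts were higher for 111 genes with a score of at least 5, lower for 70 without flanks, lower for 7 and higher for 7 in equal-length lists, and lower for 110 to 187 and higher for 227 to 404 without 1 library.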
